A study of Mus musculus with 12 samples.

Results

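The genes described here make cholesterol, control its synthesis, or move it into, within and out of cells. They were a given list of 28 genes, and every probe whose annotated gene symbol was one of them was taken, with Sc4mol read as the older name of Msmo1. Of the 28 genes, 24 had at least 1 probe, 42 probes in all among the 45281 on the array. A probe was kept when it was detected above background in at least 2 of the 8 RNA samples, at a mean detection p-value under 0.05. This left 33 probes of 22 genes: 15 enzymes of the synthesis pathway, 4 genes that control it, and 3 genes of uptake, transport and efflux. Acat2, Hmgcs1, Fdft1 and Soat1 had no probe named in the annotation and were not analysed here. Ggps1, which makes the isoprenoid geranylgeranyl diphosphate, and Abca1, a cholesterol exporter, had probes that were not detected in any of the 8 samples.

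The RNA came from mammary glands of mice without ovaries (ovx) and of control mice, each sorted into a stem cell-enriched (MaSC-enriched) and a luminal fraction. Each ovx pool combined 6 FVB/NJ females whose ovaries were removed at an age of 8 weeks and whose glands were taken 4 weeks later; the size of the control pools is not given in the sources used here. Cells that lacked CD45, CD31 and TER119, markers of leukocytes, vessels and red cells, were split by CD24 and CD29 into CD29hiCD24+ (MaSC-enriched) and CD29loCD24+ (luminal) cells. Each of the 4 groups had 2 RNA samples, one from each of 2 mouse pools, and both fractions of a replicate came from the same pool.

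Cholesterol is built from acetyl-CoA through mevalonate, isoprenoid diphosphates, squalene and lanosterol. When membranes of the endoplasmic reticulum run low in sterol, SCAP escorts the transcription factor SREBP-2 to the Golgi, where proteases free its active part, and SREBP-2 then switches on most enzymes of the pathway together. The INSIG proteins hold SCAP back when sterol is plentiful, and oxysterols act through liver X receptors to raise efflux genes such as Abcg1. Mammary epithelium makes cholesterol for its membranes and, in lactation, for milk fat globules, and dividing cells need it to build new membrane.

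On 11 of the 12 arrays, between 17705 and 18903 probes were detected. The single array of control MaSC-enriched replicate 1 had 12994, and its lowest detected signal was 7.29 on the log2 scale, against 5.73 to 5.93 on the others. There 12 of the 22 genes were detected, against 18 to 21 in each other sample, so a low value in that sample is less certain. The 11 kept genes of 12 basal and myoepithelial markers had a median log2 difference of 5.55 (MaSC-enriched minus luminal) in ovx mice and 4.66 in control mice, and the 11 kept luminal markers −1.75 and −2.06, as the fraction labels state. Because whole sorted fractions were profiled, fewer cells of a type and less RNA per cell cannot be told apart in any value below.

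Among the 15 synthesis enzymes, the median log2 deviation from a gene's own mean was −0.65 in replicate 1 of both ovx and control MaSC-enriched cells. Only 7 of these enzymes were detected in control MaSC-enriched replicate 1. The control replicate 2 pool lay highest in each fraction, with median deviations of 0.50 in MaSC-enriched and 0.80 in luminal cells. All values from here on are log2 normalized intensities of a gene's brightest kept probe, unless another probe is named, and each difference is on the same log2 scale. Of the 15 synthesis enzymes, 11 had their highest value of the 4 MaSC-enriched samples in that pool and also their highest of the 4 luminal samples, a pattern seen in 20.7% of all 11292 genes with a kept probe. Among all 22 genes the count was 13. The median difference between the control pools, replicate 2 minus replicate 1, was 1.64 in MaSC-enriched and 0.78 in luminal cells for the 15 enzymes, against 0.09 and 0.04 over all genes. The mean level of the 15 enzymes was 7.71 and 8.03 in ovx MaSC-enriched samples and 7.61 and 8.97 in control MaSC-enriched samples. It was 8.29 and 8.48 in ovx luminal samples and 8.63 and 9.14 in control luminal samples. In each fraction the control replicate 2 value was the highest, and in MaSC-enriched cells the other control sample was the lowest.

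**Figure D1:**
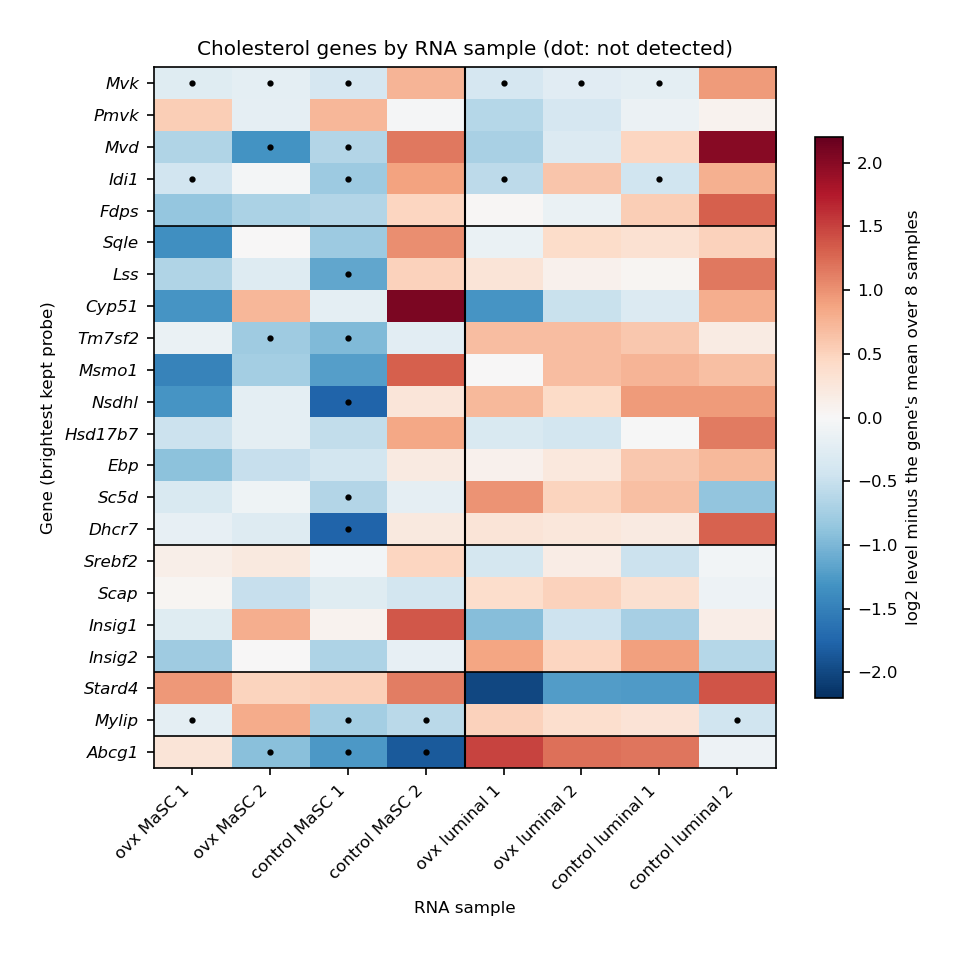
Log2 level of each of the 22 genes in each of the 8 RNA samples, drawn as the difference from the gene's own mean over the 8 samples (colour), with genes in rows ordered by role and a dot where the probe was not detected. The columns of control replicate 2 are the reddest across the synthesis enzymes at the top, while Sc5d, Insig2 and Abcg1 are lower there than in replicate 1 among the control luminal samples.

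Of the 5 early enzymes, 4 had their highest value in control replicate 2 in both fractions. The exception was Pmvk, phosphomevalonate kinase, which was lower in replicate 2 than in replicate 1 of the control MaSC-enriched samples (8.62 against 9.38). Mvd, which decarboxylates mevalonate diphosphate to the first isoprenoid, had 6.29 and 5.62 in ovx MaSC-enriched samples, against 6.31 and 8.11 in control MaSC-enriched samples. In luminal cells Mvd had 6.22 and 6.64 in ovx samples, against 7.42 and 8.94 in control samples. The 2 highest of the 8 values were those of control replicate 2 and control luminal replicate 1 came next. Idi1, which interconverts the isoprenoid building blocks, had 5.45 and 5.84 in ovx MaSC-enriched samples, against 5.08 and 6.76 in control ones. Its luminal values were 5.30 and 6.50 in ovx samples and 5.44 and 6.66 in control samples, so ovx replicate 2 lay close to control replicate 2. Mvk, mevalonate kinase, was detected only in control replicate 2, with 6.10 in MaSC-enriched and 6.30 in luminal cells, and was at or below 5.14 in the other 6 samples.

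Among the sterol enzymes, Cyp51, the demethylase of lanosterol, had 7.85 and 9.88 in ovx MaSC-enriched samples, against 8.94 and 11.23 in control MaSC-enriched samples. Its luminal values were 7.86 and 8.66 in ovx samples, against 8.86 and 9.96 in control samples. The ovx and control values overlapped in MaSC-enriched cells and did not overlap in luminal cells. Msmo1, the methylsterol monooxygenase that acts after Cyp51, had 8.32 and 9.04 in ovx MaSC-enriched samples and 8.59 and 11.10 in control ones. In luminal cells Msmo1 had 9.81 and 10.48 in ovx samples and 10.55 and 10.45 in control samples, so there control replicate 2 did not stand out. Hsd17b7, a ketosterol reductase, had 9.56 and 9.82 in ovx MaSC-enriched samples and 9.49 and 10.87 in control ones. In luminal cells Hsd17b7 had 9.68 and 9.61 in ovx samples, against 10.01 and 11.17 in control samples, and the 2 highest of its 8 values were again those of control replicate 2.

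In all, 7 genes were more than 1 log2 unit higher in replicate 2 than in replicate 1 of the control pools in both fractions. They were Mvk, Mvd, Idi1, Cyp51, Hsd17b7, Lss, which closes the sterol rings, and Dhcr7, whose reductase makes cholesterol in the last step. The share of all genes past this cut was not counted, so the 7 are given as a list only. A dimmer Lss probe was lower in replicate 2 instead. That probe had 7.85 and 5.92 in control MaSC-enriched and 6.04 and 5.74 in control luminal samples, the last not detected. In control MaSC-enriched replicate 1, whose detection floor was high, 5 of these 7 (Mvk, Mvd, Idi1, Lss and Dhcr7) were not detected, so their difference in that fraction is less certain, and Mvk and Idi1 were not detected in control luminal replicate 1 either. Other members were lower in control replicate 2 than in replicate 1. In luminal cells these were Sc5d, a sterol desaturase (−1.54), Insig2 (−1.53), Abcg1, which exports cholesterol to lipoproteins (−1.28), Mylip (−0.74), Scap (−0.45), Tm7sf2 (−0.40) and Msmo1 (−0.10). In MaSC-enriched cells they were Pmvk (−0.76) and Scap (−0.13), while Abcg1 was not detected in either control MaSC-enriched sample. The same pool had the highest levels of the proliferation list, of which 16 of 20 genes had a kept probe. The mean log2 level of those 16 was 7.45 and 7.71 in ovx MaSC-enriched, 7.65 and 10.81 in control MaSC-enriched, 7.54 and 7.81 in ovx luminal, and 8.51 and 11.19 in control luminal samples. Their summed linear intensity was 7097 and 9235 in ovx MaSC-enriched, 8728 and 48334.5 in control MaSC-enriched, 8503 and 8714 in ovx luminal, and 12527 and 62502 in control luminal samples. Between 8 and 16 of the 16 were detected in each sample, and all 16 in both control replicate 2 samples. Other lists stood apart in that pool as well. The mean level of the 8 fibroblast markers was 9.26 and 9.77 in ovx MaSC-enriched, 9.43 and 10.43 in control MaSC-enriched, 7.15 and 8.73 in ovx luminal, and 7.96 and 9.52 in control luminal samples, highest in control replicate 2 of each fraction. The mean level of 11 kept immediate early and dissociation stress genes was 12.74 and 12.61 in ovx MaSC-enriched, 12.35 and 11.35 in control MaSC-enriched, 12.74 and 12.66 in ovx luminal, and 12.28 and 11.60 in control luminal samples, lowest in the same pool. The part of these proliferation, fibroblast and stress levels in the differences among cholesterol genes was not tested.

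**Figure D2:**
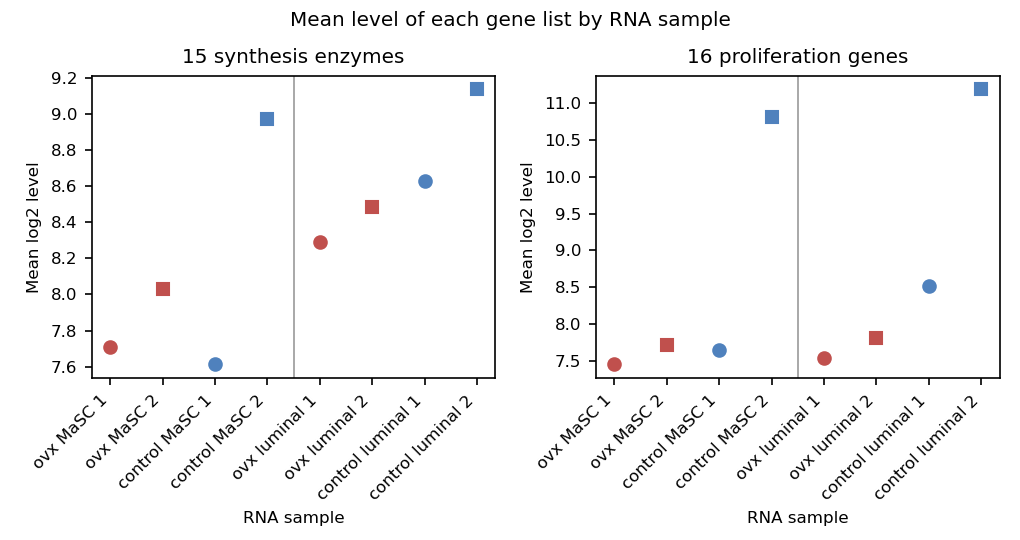
Mean log2 level of the 15 synthesis enzymes (left) and of the 16 proliferation genes with a kept probe (right) in each of the 8 RNA samples, with circles for replicate 1, squares for replicate 2, red for ovx and blue for control. The control replicate 2 squares are highest in both fractions on both sides, at 8.97 and 9.14 for the enzymes and at 10.81 and 11.19 for the proliferation genes.

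The spread between pools of one group was larger for these genes than for most: the median absolute difference between the 2 pools of a group was 0.60 over the 22 genes and 0.37 over all genes. Between 2 arrays of one RNA it was 0.13 for the 22 genes and 0.14 for all genes. In the ovx pools, replicate 2 was above replicate 1 for 11 of the 15 enzymes in MaSC-enriched cells and for 9 in luminal cells, with median differences of 0.26 and 0.11.

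Promoter sequences from RefSeq (build GRCm38.p6, 250 bases before to 50 after each gene's start) held an entry for 23 of the 28 genes, 18 of them with a kept probe. CCAAT on either strand, the box bound by NF-Y, a partner of SREBP-2, was in the promoter of 17 of those 18, and in all 13 synthesis enzymes among them, against 42.6% of the 9072 genes with a kept probe and an entry. GGGCGG on either strand, the GC box, was in 17 of the 18, against 68% of the same genes. TCACNCCAC on either strand, the core of a sterol regulatory element, was in 0 of the 18 and in 1 of the 23 (Hmgcs1), against 1.29% of genes with a kept probe. These are letter matches in a fixed window and not measured sites, and a gene with several promoter entries was counted if any of them matched. For 6 of the 7 genes named above as more than 1 log2 unit higher in both fractions, 1 entry was found, and the 150 bases just before the start are given here, on the gene's strand, 5′ to 3′, with each CCAAT or its reverse complement in capitals. They are shown because these genes differed by more than 1 log2 unit between the control pools in both fractions; they were chosen after their values were seen, and other enzymes differed as much in MaSC-enriched cells alone (Msmo1 by 2.52, Nsdhl by 2.03). The positions in GRCm38.p6 are chr5:114444119-114444268 (plus strand) for Mvk, chr8:122443423-122443572 (minus strand) for Mvd, chr13:8885456-8885605 (plus strand) for Idi1, chr10:76531455-76531604 (plus strand) for Lss, chr5:4104698-4104847 (minus strand) for Cyp51 and chr1:169969206-169969355 (minus strand) for Hsd17b7.
Mvk: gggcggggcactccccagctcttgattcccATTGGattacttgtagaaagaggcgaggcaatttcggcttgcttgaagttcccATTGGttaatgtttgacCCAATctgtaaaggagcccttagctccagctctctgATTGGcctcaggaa
Mvd: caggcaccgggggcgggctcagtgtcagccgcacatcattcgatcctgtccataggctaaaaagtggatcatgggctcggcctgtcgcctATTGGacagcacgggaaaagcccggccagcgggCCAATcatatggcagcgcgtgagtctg
Idi1: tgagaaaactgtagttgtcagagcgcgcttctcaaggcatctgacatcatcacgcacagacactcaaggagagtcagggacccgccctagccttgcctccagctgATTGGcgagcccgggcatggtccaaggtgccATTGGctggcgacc
Lss: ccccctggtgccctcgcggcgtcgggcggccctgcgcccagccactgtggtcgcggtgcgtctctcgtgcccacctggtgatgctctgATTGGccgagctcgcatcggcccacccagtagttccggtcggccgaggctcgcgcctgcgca
Cyp51: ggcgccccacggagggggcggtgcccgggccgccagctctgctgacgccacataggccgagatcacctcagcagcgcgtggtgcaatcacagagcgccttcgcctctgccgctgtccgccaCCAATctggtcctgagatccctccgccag
Hsd17b7: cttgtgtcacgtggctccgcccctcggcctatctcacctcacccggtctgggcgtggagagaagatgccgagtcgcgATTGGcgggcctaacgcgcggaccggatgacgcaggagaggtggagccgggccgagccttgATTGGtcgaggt
Each of the 6 stretches held between 1 and 4 boxes, and the nearest box ended 8 to 58 bases before the start.

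Ovariectomy was compared first in MaSC-enriched cells, to see whether loss of ovarian hormones went with a change in the pathway. With limma, 0 of the 33 probes passed an adjusted p of 0.05, where 0.0762% of all 20995 kept probes did (16 probes). At an unadjusted p under 0.05 there was 1 of the 33, a second Scap probe, against 1811 of all kept probes. The median difference, ovx minus control, was −0.16 over the 22 genes and 0.07 over all genes. For the 15 enzymes it was −0.43, with 4 genes above 0 and 11 below, and all 5 measured enzymes of the mevalonate and isoprenoid steps were below 0.

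Both ovx samples were below both control samples for 3 of the 22 genes (Mvd, Fdps and Ebp), against 13.6% of all genes, and above them for 2 (Mylip and Abcg1), against 21.3%. For Mvd this rested on 6.29 in ovx replicate 1 against 6.31 in control replicate 1. Mvd was not detected in that control sample or in ovx replicate 2. The 3 smallest p-values among the brightest probes were those of Mylip, Abcg1 and Ebp. Mylip, the ubiquitin ligase that marks lipoprotein receptors for degradation, had 5.45 and 6.47 in ovx MaSC-enriched samples, against 4.91 and 5.07 in control ones. Its difference was 0.97 (SE 0.43, adjusted p = 0.598), and it was detected in 1 of these 4 samples. Abcg1 had 6.99 and 5.78 in ovx MaSC-enriched samples, against 5.45 and 4.86 in control ones, a difference of 1.23 (SE 0.56, adjusted p = 0.62). Abcg1 was not detected in either control sample, and the bright ovx sample did not exceed the detection floor of control replicate 1. Ebp, the sterol isomerase, had 10.06 and 10.45 in ovx MaSC-enriched samples, against 10.55 and 11.17 in control ones, a difference of −0.60 (SE 0.33, adjusted p = 0.686). None of the 3 passed the threshold.

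In luminal cells 0 of the 33 probes passed, where 0.157% of all kept probes did (33 probes of 20995). At an unadjusted p under 0.05 there was 1 of the 33, Mvd, against 1511 of all kept probes. The median difference was −0.39 over the 22 genes and 0.02 over all genes. For the 15 enzymes it was −0.48, with 2 above 0 (Tm7sf2 and Sc5d) and 13 below. Both ovx samples lay below both control samples for 8 of the 22 genes, all of them enzymes (Mvk, Pmvk, Mvd, Fdps, Cyp51, Nsdhl, Hsd17b7 and Ebp), against 24.2% of all genes. They lay above for 4 (Tm7sf2, Scap, Mylip and Abcg1), against 27.7%. Mvd, Fdps and Ebp (below) and Mylip and Abcg1 (above) are in these lists for both fractions. Of these, Mvd, Mylip and Abcg1 were each not detected in some MaSC-enriched samples, so their order there is less certain. Mylip was not detected in control luminal replicate 2 either. A dimmer Fdps probe had both ovx samples above both control samples in MaSC-enriched cells, where it was not detected in any sample. In luminal cells the groups of that probe overlapped. The share of all genes listed the same way in both fractions was not counted.

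The smallest p-values in luminal cells were those of Mvd, Fdps and Stard4. The Mvd values given above made a difference of −1.75 (SE 0.71, 95% interval −3.41 to −0.09, adjusted p = 0.659). Fdps, which makes farnesyl diphosphate for sterols and prenylated proteins, had 11.08 and 10.90 in ovx luminal samples, against 11.58 and 12.36 in control ones. Its difference was −0.98 (SE 0.45, adjusted p = 0.728), with all ovx values below all control values. Stard4, which carries cholesterol between membranes, had 6.22 and 6.99 in ovx luminal samples, against 6.98 and 9.60 in control ones, a difference of −1.69 (SE 0.79, adjusted p = 0.741). Only control replicate 2 was high, and the groups overlapped by 0.01 at 6.98 and 6.99. Abcg1 had 8.19 and 7.92 in ovx luminal samples, against 7.88 and 6.60 in control ones, so ovx replicate 2 and control replicate 1 were nearly level.

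Other gene lists differed between ovx and control samples too. In MaSC-enriched cells the median difference was −1.97 over the proliferation genes, −3.23 over the milk protein genes, 1.39 over the 3 kept adipocyte markers and 1.02 over the stress genes. In luminal cells it was −2.41 over the proliferation genes, −2.91 over the milk protein genes, 3.79 over the 7 kept skeletal muscle markers and 0.89 over the stress genes. Their part in the ovx differences of cholesterol genes was not tested. Both medians of the 22 genes moved with the control pools, but only the MaSC-enriched one changed sign. The luminal median ran from −0.57 to −0.14 over all alternatives. Without the control replicate 2 pool the median over the 22 genes was 0.20 in MaSC-enriched and −0.14 in luminal cells, and without control MaSC-enriched replicate 1 the MaSC-enriched median was −0.94. Within beadchip 1 the medians were −0.17 in MaSC-enriched and −0.34 in luminal cells, and within beadchip 2 they were −0.68 and −0.35. Beadchip 1 holds only replicate 1 of each luminal group, and beadchip 2 only replicate 2 of each MaSC-enriched group. The medians of −0.34 and −0.68 thus set 1 sample against 1, and beadchip and pool cannot be told apart in them.

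**Figure D3:**
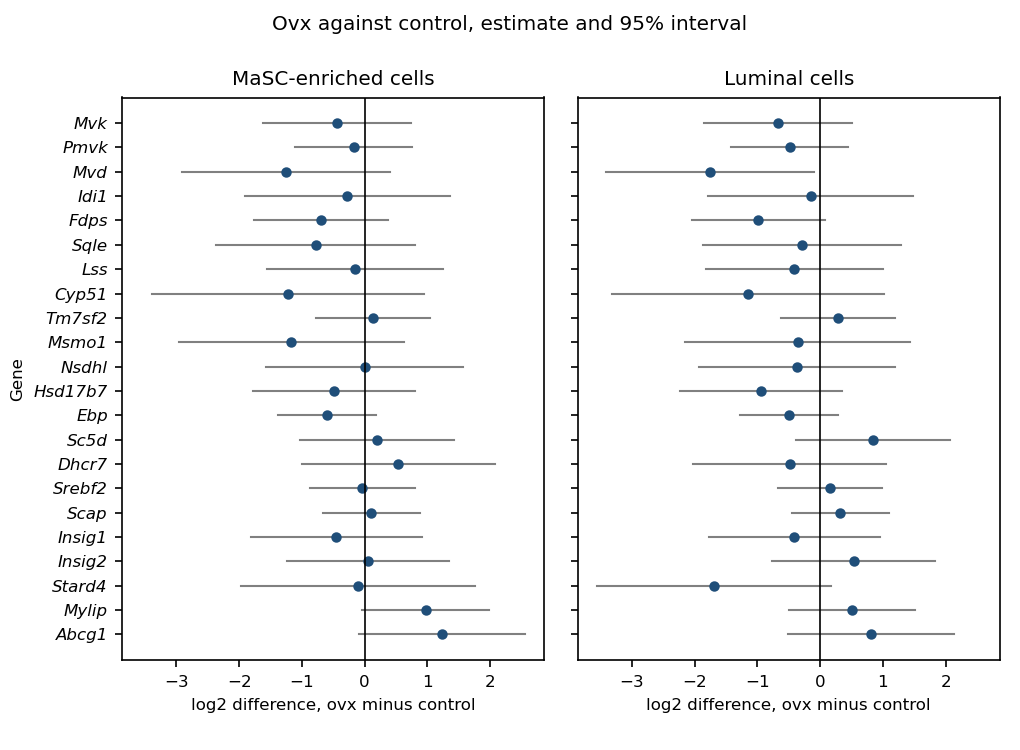
Difference in log2 level, ovx minus control, for each of the 22 genes in MaSC-enriched cells (left) and luminal cells (right), with the limma estimate as a point and its 95% interval as a bar (2 samples in each group). The interval of Mvd in luminal cells, −3.41 to −0.09, is the one that leaves out 0 before adjustment, and most enzymes lie left of 0 in both panels.

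The difference of the 2 ovx effects, MaSC-enriched minus luminal, was tested as an interaction. It passed for 0 of the 33 probes and for 0% of all kept probes, with 1 of the 33 (the second Scap probe) and 952 of all kept probes at an unadjusted p under 0.05. The smallest p-values among brightest probes were those of Stard4 (1.59, SE 1.12), Dhcr7 (1.02, SE 0.92) and Sc5d (−0.65, SE 0.74), and the 95% interval of each spanned 0. The 95% interval for Stard4 ran from −1.05 to 4.23, so these samples set only wide bounds on it. The Sc5d difference changed sign to 0.12 without control luminal replicate 2.

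The 4 genes that control the pathway had a median absolute difference between pools of one group of 0.52, against 0.67 for the 15 enzymes. Srebf2, which encodes SREBP-2, had 10.52 and 10.59 in ovx MaSC-enriched samples, against 10.32 and 10.86 in control ones. Its luminal values were 10.001 and 10.55 in ovx samples and 9.90 and 10.33 in control ones. The 8 values of Srebf2 spanned less than 1 log2 unit, and its ovx differences were −0.03 (SE 0.35) in MaSC-enriched and 0.16 in luminal cells. A dimmer Srebf2 probe gave 0.21 in MaSC-enriched and 0.38 in luminal cells (SE 0.32 in each), and neither passed the threshold. Both ovx luminal samples of that probe lay above both control luminal samples. Scap, the SREBP escort, had 10.04 and 9.50 in ovx MaSC-enriched samples and 9.73 and 9.60 in control ones, and in luminal cells 10.39 and 10.50 in ovx samples against 10.34 and 9.90 in control ones. A dimmer Scap probe disagreed in MaSC-enriched cells, with 7.45 and 6.84 in ovx samples against 8.42 and 8.11 in control samples. That probe had a difference of −1.12 (SE 0.35, adjusted p = 0.398), against 0.10 for the brightest Scap probe, and an interaction of −1.36 (adjusted p = 0.932). The array annotation gives both probes the same symbol, and which transcripts each one reads was not tested.

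Insig1, itself a target of SREBP-2, had 8.15 and 9.21 in ovx MaSC-enriched samples, against 8.48 and 9.77 in control ones. In luminal cells Insig1 had 7.47 and 7.96 in ovx samples, against 7.69 and 8.56 in control ones. In each group replicate 2 was above replicate 1, and control replicate 2 was highest in both fractions, as for most enzymes. Insig2, which is not induced by SREBP-2 in liver, had 8.94 and 9.73 in ovx MaSC-enriched samples and 9.03 and 9.53 in control ones. Its luminal values were 10.60 and 10.20 in ovx samples, against 10.62 and 9.10 in control ones, with control replicate 2 the lowest of the 4. The ovx differences of Insig1 were −0.45 and −0.41 in MaSC-enriched and luminal cells, and those of Insig2 0.06 and 0.53, none past the threshold.

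The fractions were compared next, MaSC-enriched against luminal, within each treatment. Most synthesis enzymes had lower values in MaSC-enriched cells, but few single differences passed the test. In ovx mice 0 of the 33 probes passed, where 12.4% of all kept probes did, with 7 of the 33 and 5541 of all kept probes at an unadjusted p under 0.05. In control mice 1 of the 33 passed, where 10.1% of all kept probes did. The median difference over the 22 genes was −0.58 in ovx and −0.52 in control mice, against −0.08 and −0.12 over all genes. Of the 15 enzymes, 11 were below 0 in ovx and 13 in control mice, with medians of −0.66 and −0.65. In ovx mice both MaSC-enriched samples lay below both luminal samples for 11 of the 22 genes, 8 of them enzymes, against 36.9% of all genes, and above them for 3 (Pmvk, Insig1 and Stard4), against 30.1%. In control mice they lay below for 7 of the 22, 4 of them enzymes, against 29.3% of all genes, and above for 0, against 23.7%. Within beadchip 1 the median over the 22 genes was −0.50 in ovx and −0.49 in control mice, and within beadchip 2 it was −0.41 and −0.13. On beadchip 1 each luminal group had only replicate 1, and on beadchip 2 each MaSC-enriched group had only replicate 2. The pools therefore differ between these medians as well as the beadchip.

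The probe that passed was the dimmer of 2 Fdps probes. It had 5.32 and 5.43 in control MaSC-enriched samples, not detected in either, against 7.82 and 6.83 in control luminal samples. Its difference was −1.95 (SE 0.41, adjusted p = 0.0295), which by the detection floor means at least 1.72-fold lower in MaSC-enriched cells; the bound sets the luminal mean against the higher of the floor and the probe's own signal on each array. The same probe in ovx mice had 5.65 and 5.75 in MaSC-enriched samples, against 6.83 and 7.49 in luminal samples, a difference of −1.46 (adjusted p = 0.0643). The brightest Fdps probe had 10.19 and 10.34 in ovx MaSC-enriched samples against 11.08 and 10.90 in ovx luminal samples. In control mice it had 10.40 and 11.52 in MaSC-enriched samples against 11.58 and 12.36 in luminal samples, a difference of −1.01 (SE 0.45, adjusted p = 0.209). Both probes were lower in MaSC-enriched cells of each pool. The call was lost in 10 of 20 alternatives, among them the fits without control MaSC-enriched replicate 1, without control luminal replicate 1 and without any 1 of the 4 ovx samples.

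Since both fractions of a pool come from the same mice, the difference was also read within each pool. MaSC-enriched was below luminal in all 4 pools for 8 of the 22 genes (Fdps, Lss, Tm7sf2, Nsdhl, Ebp, Dhcr7, Scap and Abcg1), against 30.7% of all genes. It was above luminal in all 4 pools for 2 (Srebf2 and Insig1), against 22.7%. Nsdhl, a dehydrogenase of the sterol demethylation steps, had differences of −2.01 and −0.63 in the ovx pools and −2.70 and −0.68 in the control pools. All 4 Nsdhl probes were lower in MaSC-enriched cells, by means of −1.16 to −1.55 in ovx and −1.17 to −1.69 in control mice, with adjusted p of 0.160 or more. Tm7sf2, a sterol reductase, had differences of −0.81 and −1.46 in the ovx pools and −1.56 and −0.42 in the control pools. Insig1 had 0.68 and 1.24 in the ovx pools and 0.80 and 1.21 in the control pools, while its other 2 kept probes had means of −0.07 to 0.17 in the 2 treatments.

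**Figure D4:**
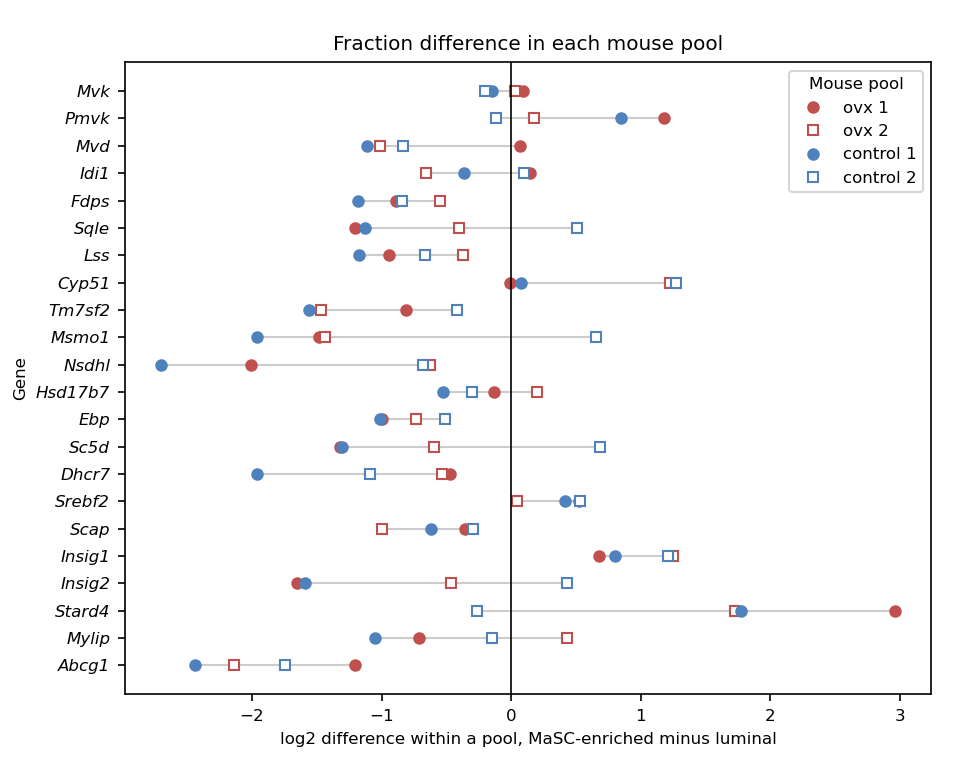
Difference in log2 level within each mouse pool, MaSC-enriched minus luminal, for the 22 genes, with red for ovx and blue for control pools, filled circles for replicate 1 and open squares for replicate 2. Abcg1 lies left of 0 in all 4 pools and Insig1 right of 0, and the open blue square of control replicate 2 is the right-most or left-most point for several genes, among them Msmo1, Sc5d and Stard4.

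In ovx mice, Abcg1 had the lowest and Stard4 the highest fraction difference of the 22 genes. Abcg1 was lower in MaSC-enriched cells, with the per-sample values given above and differences of −1.20 and −2.14 in the ovx pools and −2.44 and −1.74 in the control pools. Its mean difference was −1.67 (SE 0.56, adjusted p = 0.106) in ovx and −2.09 (SE 0.56, adjusted p = 0.0618) in control mice, the second at least 1.62-fold by the detection floor. With the mouse pool as a block, Abcg1 passed the threshold in both, at an adjusted p of 0.0457 in ovx mice (range over its 19 alternatives 0.0457 to 0.42) and 0.0302 in control mice (0.0302 to 0.29). That made 1 called probe of the 33 in ovx and 2 in control mice. Stard4 had 9.17 and 8.71 in ovx MaSC-enriched samples against 6.22 and 6.99 in ovx luminal samples, a difference of 2.34 (SE 0.79, adjusted p = 0.108). In control mice Stard4 had 8.75 and 9.34 in MaSC-enriched samples against 6.98 and 9.60 in luminal samples. Of the 4 luminal samples, 3 lay below all 4 MaSC-enriched ones, and control luminal replicate 2 lay above them.

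The count of calls between the fractions of control mice depended on the control replicate 2 samples. Without control MaSC-enriched replicate 2, 12 of the 33 probes passed, where 26.2% of all kept probes did in the same fit (5503 of 20995). The member probes that passed included all 4 Nsdhl probes, both Fdps probes, Dhcr7, Msmo1, Tm7sf2 and a dimmer probe of Sqle (squalene epoxidase). The brightest Sqle probe was not among them. Of these 12, 11 were lower in MaSC-enriched cells; the other was a dimmer Lss probe at 1.96, while the brightest Lss probe was at −1.74. Without the whole control replicate 2 pool, 6 passed in control mice, where 21.6% of all kept probes did, and 4 in ovx mice, where 20.7% did. The 4 were Stard4 (2.34), Msmo1 (−1.46) and the dimmer Fdps and Scap probes. The lone remaining control sample of a fraction is then assumed to vary like the other groups, and it is the one with the high detection floor.

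Markers of other cells differed between the fractions too. Of 8 endothelial markers, 7 were kept, with a median difference of 2.26 in ovx and 2.45 in control mice although CD31+ cells were sorted away; their summed intensity was 11476 to 31931 in ovx and 9142 to 18267 in control MaSC-enriched samples, against 3785 to 4874 in ovx and 3386 to 3845 in control luminal samples. All 8 fibroblast markers were kept, with medians of 1.63 and 0.96, and 7 of 8 skeletal muscle markers, with medians of −3.66 and −0.11. Their part in the fraction differences of cholesterol genes was not tested.

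Other genes of cholesterol handling, from a list of 41 of which 34 had a kept probe (52 probes), set the members in context. In both ovx comparisons 0 of the 52 probes passed, and likewise for the interaction. Between fractions, 5 of the 34 genes were higher and 1 lower in MaSC-enriched cells of ovx mice, and 6 were higher and 1 lower in control mice. Over all 11292 genes, 8.91% were higher and 5.65% lower in ovx mice, and 6.91% higher and 4.85% lower in control mice. Of the 7 tested genes of oxysterols, bile acids and esterification, 4 were higher in each treatment. Cyp7b1, which hydroxylates oxysterols, had 9.36 and 10.13 in ovx MaSC-enriched samples against 5.26 and 5.45 in ovx luminal samples, and 10.09 and 10.36 against 5.64 and 6.02 in control mice. Its difference was 4.39 in both (adjusted p = 0.000835 in ovx and 0.00112 in control mice), at least 15.5-fold in ovx mice, where it was not detected in luminal cells, and it kept its call in 19 of 19 alternatives in each treatment. Cyp27a1, the sterol hydroxylase of mitochondria, had 8.90 and 8.62 in ovx MaSC-enriched samples against 6.81 and 6.83 in ovx luminal samples, and 8.58 and 7.93 against 5.81 and 5.69 in control mice. Its differences were 1.94 in ovx and 2.51 in control mice, and its groups did not overlap.

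Ch25h, cholesterol 25-hydroxylase, had 10.72 and 10.32 in ovx MaSC-enriched samples against 8.23 and 8.14 in ovx luminal samples, and 11.61 and 10.59 against 8.72 and 9.16 in control mice. Its differences were 2.34 in ovx and 2.16 in control mice. Lrp1, a large lipoprotein receptor, had 9.11 and 8.87 in ovx MaSC-enriched samples against 6.22 and 6.62 in ovx luminal samples, and 9.43 and 8.38 against 6.61 and 5.87 in control mice. Its differences were 2.57 in ovx and 2.67 in control mice, and both genes were higher in every MaSC-enriched sample than in any luminal one.

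Lcat, which esterifies cholesterol on lipoproteins, had 7.72 and 6.92 in ovx and 7.09 and 6.97 in control MaSC-enriched samples. Lcat was not detected in any luminal sample, nor in control MaSC-enriched replicate 1 (7.09), whose detection floor was high. It was at least 2.89-fold higher in MaSC-enriched cells of ovx mice. The matching value of 2.40-fold in control mice rests in part on the undetected 7.09, so it is not a lower bound. Vldlr, a receptor for triglyceride-rich lipoproteins, passed in control mice (1.84, adjusted p = 0.0148) and had 1.20 in ovx mice. Lower in MaSC-enriched cells were Stard3, a late endosome sterol carrier, in ovx mice (−1.64, adjusted p = 0.0299) and Srebf1, which encodes the SREBP of fatty acid synthesis, in control mice (−1.74, adjusted p = 0.0305). Stard3 had 9.28 and 8.92 in ovx MaSC-enriched samples against 10.86 and 10.62 in ovx luminal samples. Its other kept probe gave −1.50 in ovx mice and did not pass (adjusted p = 0.149). Srebf1 had 6.86 and 7.64 in control MaSC-enriched samples against 9.09 and 8.89 in control luminal samples. The value of 6.86 was not detected. The Srebf1 call was lost with the replicate block and with the beadchip as a block. Of these calls other than Cyp7b1, each was lost in 1 to 11 of its 19 or 20 alternatives, each of them within beadchip 1 among others. The endothelial and fibroblast levels given above moved the same way as the higher genes, and their part in them was not tested.

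**Figure D5:**
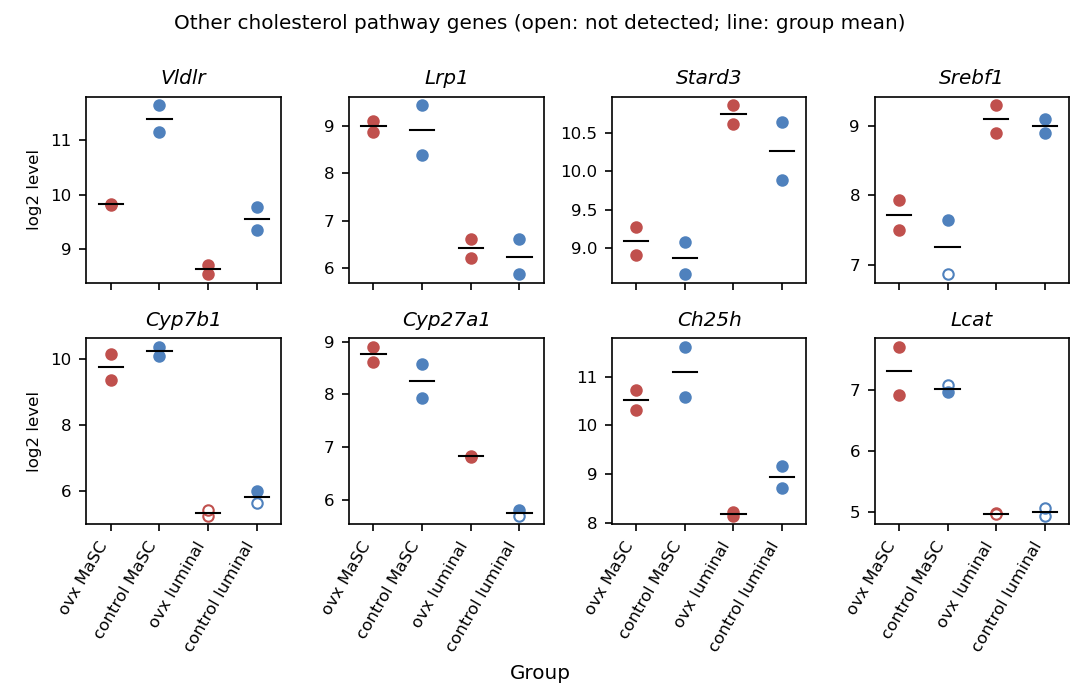
Log2 level of 8 other cholesterol pathway genes in the 8 RNA samples, by group from left to right (ovx MaSC-enriched, control MaSC-enriched, ovx luminal, control luminal), with 1 point for each sample, open where not detected, and a line at each group's mean. Cyp7b1, Cyp27a1, Ch25h, Lrp1 and Lcat sit higher in the MaSC-enriched groups, Stard3 and Srebf1 lower, and Vldlr is lower in ovx than in control samples of each fraction.

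Of the 34 genes, Vldlr had the smallest p in the MaSC-enriched ovx comparison. It had 9.83 and 9.82 in ovx MaSC-enriched samples, against 11.15 and 11.65 in control ones, a difference of −1.57 (SE 0.32, adjusted p = 0.176). In luminal cells Vldlr had 8.71 and 8.54 in ovx samples, against 9.34 and 9.78 in control ones, a difference of −0.93 (adjusted p = 0.558). Groups did not overlap in either fraction, and its other 2 kept probes gave −1.48 and −1.76 in MaSC-enriched cells. Cyp27a1 in luminal cells went the other way, with 6.81 and 6.83 in ovx samples against 5.81 and 5.69 in control ones, a difference of 1.07 (SE 0.33, adjusted p = 0.46). Its other 2 kept probes gave 0.29 and 0.22 there.

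The others of the 3 smallest p-values were those of Nr1h3, Osbp and Scarb1. Nr1h3, the liver X receptor alpha, had 8.58 and 7.83 in ovx MaSC-enriched samples, against 7.62 and 7.34 in control ones, a difference of 0.72 (adjusted p = 0.637). Its other kept probe gave 0.22 there and 0.21 in the interaction. Osbp, an oxysterol-binding protein, had 8.21 and 8.01 in ovx MaSC-enriched samples, against 7.44 and 7.70 in control ones, a difference of 0.54 (adjusted p = 0.684). Both genes had their ovx samples above their control samples. Scarb1, a receptor for high-density lipoprotein, had 6.06 and 6.49 in ovx luminal samples, against 7.16 and 7.78 in control ones, a difference of −1.19 (adjusted p = 0.723). In the interaction the smallest p-values were those of Scarb1 (1.46), Nr1h3 (0.75) and Vldlr (−0.64), and none of these 5 genes passed the threshold in an ovx comparison.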

How the data were processed

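Sorted mammary cells were profiled on Illumina BeadChips from up to 250 ng of total RNA. In 12 arrays on 2 beadchips, 8 RNA samples were measured and 4 of them were run a second time. Per the file headers, the authors deposited non-normalized intensity values with a detection p-value beside each. Their separate series table, also deposited, holds values whose range is that of log2 intensities, and it served as an alternative. BeadStudio and limma stand in the submitters' processing notes, with no version or role.

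The intensities were background corrected with neqc of limma 3.58.1 in R 4.3.3 (negative control parameters from the detection p-values, offset 16), quantile normalized over 12 arrays and log2 transformed, which can compress differences of dim probes. Arrays of one RNA were averaged. Kept probes numbered 20995 of 45281, of which 34885 carry 1 gene symbol, 18 several and 10378 none in the platform annotation. One model of 4 group means was fitted to 8 samples, with residual 4 and prior 3.22 degrees of freedom, and 5 two-sided contrasts were tested with Benjamini-Hochberg adjustment over all kept probes at 0.05. The number of arrays limits the precision, and an exact test of 2 against 2 samples cannot go below p = 0.333. Replicates are separate mouse pools by label. Both fractions of a replicate share a pool (correlation of deviations 0.37 in control and 0.13 in ovx pools), so the pool was used as a block in an alternative fit. The scripts were tested on simulated data. The members and lists were chosen with earlier results of these data known. Described sample by sample are members called, those with the 3 smallest p in a comparison, the 4 regulators and, chosen after their values were seen, enzymes that differed between control pools; of other pathway genes, those called or with the 3 smallest p.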

Additional observations from a re-analysis of the deposited data

How the results depend on the processing

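The count of called member probes was 0 in both ovx comparisons and in their difference under all 19 alternatives. Between fractions of ovx mice (main count 0) it was 1 within beadchip 2 (Tm7sf2), 1 with the beadchip as a block (Stard4), 1 with the replicate block (Abcg1), 4 without the control replicate 2 pool, and 0 to 2 when 1 sample was left out. Between fractions of control mice (main count 1) it was 0 without background correction, 0 without a filter, 0 within beadchip 1, 0 within beadchip 2, 2 with the beadchip as a block, 2 with the replicate block, 6 without the control replicate 2 pool, and 0 to 12 when 1 sample was left out. The pool block changed no other call among members. The median over members in the MaSC-enriched ovx comparison was −0.68 within beadchip 2 and −0.94 to 0.20 when 1 sample was left out. Beadchip 2 holds only replicate 2 of each MaSC-enriched group. The median between fractions of control mice was −1.08 without the control replicate 2 pool and −1.02 to −0.080 when 1 sample was left out. In the interaction, Dhcr7 was at −0.15 within beadchip 2, and Sc5d at 0.35 without the control replicate 2 pool and −1.42 to 0.12 when 1 sample was left out, the highest without control luminal replicate 2. Over all kept probes the counts called ranged from 0 to 583 (ovx, MaSC-enriched; main 16), 0 to 156 (ovx, luminal; main 33), 0 to 9 (interaction; main 0), 262 to 4337 (fractions, ovx; main 2596) and 181 to 5503 (fractions, control; main 2122). Causes of these shifts were not tested beyond the samples left out. For the ovx comparisons the replicate numbers are shared by label between different pools, with correlations of deviations of 0.59 in MaSC-enriched and 0.28 in luminal cells, and the replicate block left the member count at 0. The high floor of the control MaSC-enriched replicate 1 array limits dim genes there.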

Other observations

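Some cholesterol handling genes outside the member list also had their highest value of each fraction in control replicate 2. This pattern was seen in 20.7% of all 11292 genes with a kept probe. Among the listed genes it held for Erlin1, Erlin2, Vldlr, Fntb, Rce1, Dhdds, Dpagt1, Cyp7b1, Tmem97, Stard5 and Nus1. Tmem97, Stard5 and Nus1 were chosen after their values were seen, so they are given as values with no test. Tmem97, a sterol-sensitive membrane protein, had 8.46 and 9.02 in ovx MaSC-enriched samples, against 8.62 and 11.11 in control ones, and 9.24 and 9.04 in ovx luminal samples, against 10.06 and 11.25 in control ones. Stard5, a sterol carrier, had 8.48 and 9.30 in ovx MaSC-enriched samples, against 8.99 and 10.10 in control ones, and 8.26 and 8.48 in ovx luminal samples, against 9.05 and 10.03 in control ones. Nus1, a subunit of the enzyme that extends dolichol from isoprenoid units, had 9.15 and 9.75 in ovx MaSC-enriched samples, against 8.66 and 10.50 in control ones, and 9.03 and 9.77 in ovx luminal samples, against 9.97 and 11.15 in control ones.

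Abcg4, an exporter related to Abcg1 and also chosen after its values were seen, lay the other way in control replicate 2. It had 7.92 and 7.62 in ovx MaSC-enriched samples, against 7.54 and 6.77 in control ones, and 8.44 and 8.25 in ovx luminal samples, against 8.53 and 6.26 in control ones. Its control replicate 2 value was the lowest of each fraction. The same held for Lrpap1, Lrp1, Stard3, Cyp27a1 and Hsd3b7, with Cyp27a1 not detected in control luminal replicate 2. The share of all genes with this pattern was not counted.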
